A study of Drosophila melanogaster with 3 samples.

Results

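The 88 genes described here encode nuclear-encoded parts of the oxidative phosphorylation machinery of Drosophila melanogaster. They were chosen by symbol alone, as protein-coding genes on the 6 chromosome arms whose Ensembl symbol begins with ND-, UQCR-, COX, ATPsyn or Sdh, and they are 88 of 13945 such genes. The chosen genes fall to 40 of complex I, 8 of complex II, 9 of complex III, 16 of complex IV and 15 of complex V. The prefix took in 24 genes whose symbol ends in L, with or without a digit, which are copies of another subunit gene, and 1 assembly factor, Sdhaf3. ND-MNLL, whose symbol also ends in L, was classed as a subunit and not as a copy. It is counted among the 64 genes without the suffix, and it had an optimal promoter peak.

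The data are ChIP-seq peak lists for GAGA factor, the zinc finger protein encoded by Trithorax-like (Trl), which binds GA-rich DNA and is known for keeping promoters accessible. The samples were whole embryos of both sexes, 0 to 24 h old, of the strain Trl-MiMIC-GFP. In this strain a GFP exon inserted in an intron makes a Trl-GFP fusion. By the sample description, the precipitation used an antibody against GFP, while the sample characteristics name Trl under antibody. The description was followed here. All 3 samples are biological replicates of this 1 group, with no second genotype or treatment, so nothing here compares conditions, and all cell types of the embryo are mixed. The thresholded list, called the optimal list, held 4900 peaks and was the same as the strongest 4900 of the 30000 peaks in the pooled list, and each replicate list also held 30000 peaks, background calls included. Read totals are not part of peak lists, and sequencing depth is therefore unknown. A gene was said to have a promoter peak when a peak's summit was no more than 500 bp from 1 or more of its annotated start sites, and rank 1 is the strongest peak of a list by the authors' signal.

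Oxidative phosphorylation passes electrons from NADH and succinate through complexes I to IV of the inner mitochondrial membrane to oxygen, and the proton gradient this builds drives ATP synthesis by complex V. Most subunits are encoded in the nucleus and must be made in step with the few encoded in mitochondrial DNA. Fly genomes also hold additional copies of many subunit genes, several of which are known to be expressed mainly in the testis.

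The sequences under the summits are shown first because their letters are compared with those of other summits later. Within 100 bp of the summit on either strand, GAGAG, letters that GAGA factor is known to bind, was found at 1 of 20 summits, that of COX6B, and at 32.2% of other promoter summits, so most summits of both kinds lacked it. TATCGATA, the DNA replication-related element (DRE) bound by DREF, was found at SdhC and ATPsynE, and GGTCACAC, the core of the motif 1 bound by M1BP, at ND-B17. The NRG element, known from upstream regions of nuclear genes for mitochondrial proteins in flies (TTATATAA, TTATGTAA, TTACATAA or TTACGTAA), was found at ND-MNLL and ND-SGDH. Below are the stretches of COX6B (chrX:19744336-19744430), SdhC (chr3R:11210121-11210241) and ND-MNLL (chrX:7893799-7893919), 1 for each of 3 motifs, all on dm6 from the RefSeq Release 6 genome. Each lies outside annotated exons, holds its summit and is read on the minus strand, which is the strand of the gene. Capitals mark the motif, and CTCTC at COX6B is GAGAG on the other strand.
COX6B: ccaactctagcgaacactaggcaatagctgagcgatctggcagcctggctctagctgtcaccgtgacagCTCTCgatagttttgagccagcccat
SdhC: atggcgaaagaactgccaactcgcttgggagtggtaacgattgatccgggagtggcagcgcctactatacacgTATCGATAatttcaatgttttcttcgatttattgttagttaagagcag
ND-MNLL: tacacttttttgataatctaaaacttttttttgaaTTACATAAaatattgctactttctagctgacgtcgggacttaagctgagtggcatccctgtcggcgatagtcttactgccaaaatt

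The 3 strongest promoter peaks among the 88 genes, at ND-ASHI (chrX:6679307-6679427, minus strand), ND-51 (chr2L:6062827-6062947, minus strand) and COX5A (chr3R:11819427-11819547, plus strand), held none of the 6 motifs searched within 100 bp of the summit, and neither did the one at COX8 (chr3L:21539448-21539568, minus strand). They are printed from the same genome, each on the strand of its gene and outside annotated exons. Capitals mark the 5 bases centred on the summit.
ND-ASHI: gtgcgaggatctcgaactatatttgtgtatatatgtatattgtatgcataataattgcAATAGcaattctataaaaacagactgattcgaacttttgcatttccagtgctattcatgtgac
ND-51: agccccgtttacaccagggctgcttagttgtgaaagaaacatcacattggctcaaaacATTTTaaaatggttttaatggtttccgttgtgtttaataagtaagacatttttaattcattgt
COX5A: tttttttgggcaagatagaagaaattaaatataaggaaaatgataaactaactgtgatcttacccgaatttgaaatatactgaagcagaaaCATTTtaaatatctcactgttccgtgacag
COX8: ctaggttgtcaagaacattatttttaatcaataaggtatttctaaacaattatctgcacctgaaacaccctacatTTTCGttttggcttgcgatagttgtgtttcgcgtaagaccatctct

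Over all 88 genes, GAGA factor peaks were about as frequent as at other genes, but the L-suffixed copies and the remaining genes differed. In all, 20 of 88 genes (22.7%, exact 95% binomial interval 14.5 to 32.9) had an optimal promoter peak, against 3173 of 13857 other protein-coding genes (22.9%) and 22.9% of all protein-coding genes. None of the 24 L-suffixed copies was among the 20 (interval 0 to 14.2%), and 20 of the 64 genes without that suffix were (31.2%, interval 20.2 to 44.1). These intervals cover counting error only, and genes that share a peak are not independent. The intervals of the copies and of the other 64 did not overlap. That of the 64 reached down to 20.2% and so held the share of other genes. This grouping of 24 copies was made after the values were seen, and no test between the groups was run. The 20 copies whose parent is also among the 88 had none either (interval 0 to 16.8%).

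In the longer pooled list the copies again had the lowest share. A pooled promoter peak was found at 56 of 88 genes (63.6%, interval 52.7 to 73.6), beside 54.4% of all protein-coding genes. It was found at 50 of the 64 genes without the suffix (78.1%, interval 66 to 87.5) and at 6 of the 24 copies (25%, interval 9.77 to 46.7). Unlike in the optimal list, the interval of the 64 lay above the share of all genes. That of the copies lay below it, as it also did in the optimal list, with gene arrangement not matched. The pooled list holds background calls, and this share cannot be read as binding.

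The replicates differed little in these shares. With each replicate cut to its own strongest 4900 peaks, 21.6%, 22.7% and 23.9% of the 88 genes had a promoter peak in replicates 1, 2 and 3 (22.7% ± 1.14, SD, n = 3), against 22.6% ± 0.0985 (SD, n = 3) of other genes. The difference was smaller than the spread between replicates, and an exact test over 3 replicates cannot pass a threshold of 0.05, so none was made. No copy had such a peak in any replicate. In the full replicate lists, 18.1% ± 4.81 of the copies (SD, n = 3) had a promoter peak. A promoter peak in the strongest 4900 of all 3 replicates was found at 15 of 88 genes (17%), beside 16.5% of all protein-coding genes.

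Other gene groups of basic cell function gave a scale for these shares. The proteasome subunits were close to the oxidative phosphorylation genes, with an optimal promoter peak at 10 of 48 (20.8%, interval 10.5 to 35). The mitochondrial ribosomal proteins, which translate the subunits encoded in mitochondrial DNA, had one at 34 of 73 (46.6%, interval 34.8 to 58.6), and the cytosolic ribosomal proteins at 69 of 92 (75%, interval 64.9 to 83.4). The intervals of both ribosomal groups lay above that of the 88 genes, and that of the mitochondrial ribosomal proteins overlapped with that of the 64 genes without the suffix.

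**Figure D1:**
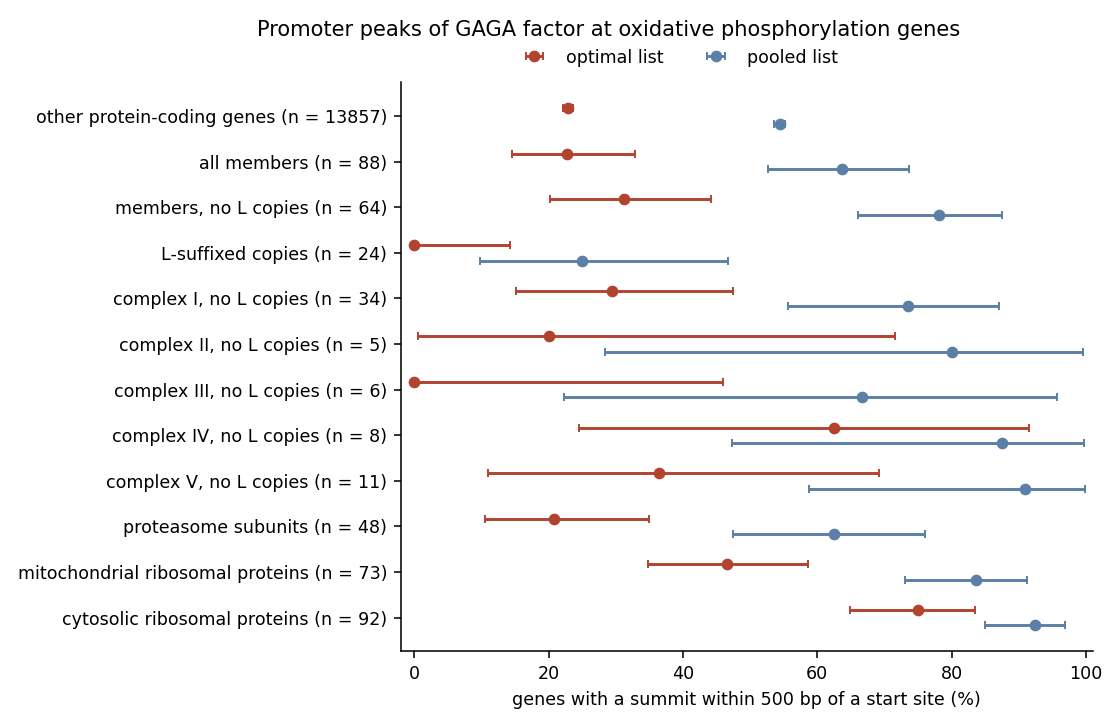
Share of genes in each group with a promoter peak, in percent, for the optimal list (red) and the pooled list (blue), with exact 95% binomial intervals as bars; members are the 88 oxidative phosphorylation genes, and L copies are the 24 copies whose symbol ends in L, with or without a digit, ND-MNLL not being one. All members sat at 22.7% in the optimal list beside 22.9% of other genes, the copies at 0% and the cytosolic ribosomal proteins at 75%.

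Complex I, the NADH dehydrogenase where most electrons enter, held 10 of the 20 genes with an optimal promoter peak. These were out of 40 (25%) or of 34 without the copies (29.4%, interval 15.1 to 47.5). That interval holds the 22.9% of all genes. The strongest was at ND-ASHI, an accessory subunit of the membrane arm, at rank 474 of the pooled list and at 497, 456 and 544 in replicates 1, 2 and 3. Its summit lay 249 bp upstream of a start site of ND-ASHI on X, in an intron annotation. The 3 replicate ranks were close together and all within the strongest 4900.

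ND-51, the flavoprotein that takes up electrons from NADH, followed at pooled rank 541, with ranks of 892, 506 and 466 in the replicates, and its summit lay 130 bp upstream on 2L. ND-24, the partner of ND-51 in the same module, was at pooled rank 1017 and at 819, 1354 and 1084, with the summit 88 bp downstream of its start site on X, in a 5' UTR. Replicate 1 was the lowest for ND-51 and the highest for ND-24, so no replicate was low throughout. The accessory subunits ND-MWFE and ND-42 both had a second optimal peak closer to their own start site. ND-MWFE on 2R was at pooled rank 761 (735, 609 and 1093 in the replicates) with its summit 229 bp upstream, and ND-42 on 3R at 1031 (1104, 1103 and 1102) with its summit 252 bp upstream. Their second peaks were far weaker, at optimal rank 3998, 28 bp upstream of ND-MWFE, and at 3148, 40 bp upstream of ND-42.

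The other complex I genes with an optimal promoter peak encode accessory subunits of the membrane arm. ND-SGDH was at pooled rank 1669 (2483, 1363 and 1425) on 3L and ND-B17 at 1688 (1674, 1857 and 1981) on 2L. The last 3 were weaker, with ND-B22 at 3360, ND-B18 at 3593 and ND-MNLL at 3921. ND-B22 ranked 9013 in replicate 1 but 2353 and 2933 in the others, and ND-MNLL ranked 9135 in replicate 3 but 3216 and 4540 in the others. ND-B18, at 3596, 4152 and 4858, stayed within the strongest 4900 throughout. Among the core subunits, a group singled out after the values were seen, ND-51 and ND-24 were the ones with an optimal promoter peak. ND-23, ND-20, ND-30 and ND-75 had only pooled promoter peaks, at ranks 7149, 8376, 17058 and 27123, and ND-49 had no promoter peak in any list.

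Complexes II and III, which feed electrons from succinate and pass them on to cytochrome c, had 1 gene with an optimal promoter peak between them. In complex II the one gene of 8 (12.5%, interval 0.316 to 52.7, which holds the 22.9% of all genes) was SdhC, a membrane anchor subunit. It was at pooled rank 2410 (1925, 3167 and 3513) with its summit 332 bp upstream on 3R. It also was the gene with the largest distance inside the 500 bp window, and a second optimal peak at rank 3805 lay 50 bp upstream. SdhD, the other anchor subunit, was the first gene outside the optimal list, at pooled rank 5179 (4309, 7181 and 4726). SdhB, the iron-sulphur subunit, had a pooled promoter peak at rank 12768, and the flavoprotein SdhA had none.

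None of the 9 complex III genes had an optimal promoter peak, which allows a share of up to 33.6% (upper bound of the exact 95% interval), so a share as high as that of other genes could not be told from 0 with this few genes. Pooled promoter peaks were present at 6 of 9, the strongest at UQCR-14 at rank 6781 (5688, 5505 and 17475). Of the core proteins, UQCR-C1 had no promoter peak in any list and UQCR-C2 had one in replicate 1 only, at rank 20689.

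Complex IV, cytochrome c oxidase, had an optimal promoter peak at 5 of 16 genes (31.2%, interval 11 to 58.7, which holds the 22.9% of all genes). Without its 8 copies, left out after the values were seen, this was 5 of 8 (62.5%, interval 24.5 to 91.5). That interval held the share of complex I, and the order of the complexes is not resolved. COX5A was at pooled rank 568 and at 1102, 559 and 370 in the replicates, with the summit 79 bp upstream of its start site on 3R. COX6B was at 835 (533, 1404 and 1029) with the summit 29 bp upstream on X. For COX5A replicate 1 was the weakest of the 3 and for COX6B the strongest. COX8 on 3L followed at 1448 (1568, 1012 and 2596) with its summit 44 bp upstream, and COX5B on 2L at 1488 (2374, 1296 and 1306) with its summit 274 bp upstream. All 4 were within the strongest 4900 of every replicate. COX7B, at pooled rank 3924, was the weakest of the 20 and the last inside the optimal list, and it ranked 1827 in replicate 3 but 5045 and 5494 in replicates 1 and 2.

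Complex V, the ATP synthase, had 4 of 15 genes with an optimal promoter peak, or 4 of 11 without the copies (36.4%, interval 10.9 to 69.2). That interval holds the 22.9% of all genes. ATPsynE and ATPsynF, small subunits of the membrane part, were at pooled ranks 1295 (857, 1537 and 1212) and 1752 (1886, 2246 and 2143). ATPsynCF6, coupling factor 6 of the stalk, was at 2898 and had the widest range of ranks of the 4, at 8334, 2277 and 1917. ATPsynbeta, the catalytic subunit, was at 3330 (1823, 7443 and 4581), with the summit 6 bp downstream of a start site on chromosome 4. ATPsynE and ATPsynF were thus within the strongest 4900 of each replicate, and ATPsynCF6 and ATPsynbeta each missed it in 1.

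**Figure D2:**
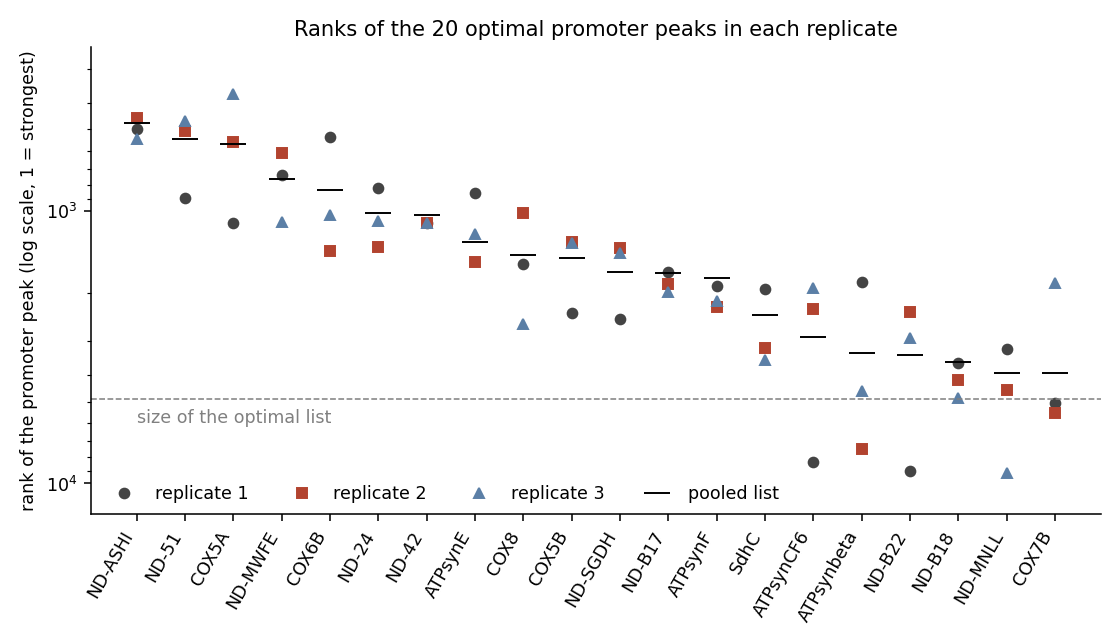
Rank of the promoter peak of each of the 20 genes in the 3 replicate lists (points) and in the pooled list (bars), on a log scale with rank 1 as the strongest; the dashed line is at 4900, the size of the optimal list. The 14 strongest genes, from ND-ASHI to SdhC, lay within the strongest 4900 in all 3 replicates, and ATPsynCF6, ATPsynbeta, ND-B22, ND-MNLL and COX7B crossed the line in at least 1.

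Of the 20 genes, 15 were within the strongest 4900 of all 3 replicates, 4 of 2 and 1 of 1. The optimal list was itself made from these replicates, so this agreement comes in part by construction. Of the 20 genes, 14 (70%) were in the stronger part of the optimal list, up to rank 2450. The share was 57% of other genes with an optimal promoter peak. Only ND-ASHI was among the strongest 490 (5%, beside 13.9%). The median optimal rank was 1578.5 for the 20 genes and 2069 for the other genes. Over all genes with a pooled promoter peak, the median percentile in that list was 76.7 for the 56 genes and 79 for 7532 others, and the replicates did not give 1 direction (71.3, 78.1 and 81.2 against 78.9, 79.2 and 79.7).

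The peaks mostly lay between 2 genes that start close together and run in opposite directions. For 18 of the 20 genes (90%) another gene's start site lay within 500 bp of the strongest summit, beside 53.6% of other genes with an optimal promoter peak. The same 18 had a head-to-head neighbour, an opposite-strand gene starting no more than 500 bp away, beside 51% of those other genes. The closest start sites of these pairs were 20 to 415 bp apart, with a median of 230.5 bp, against 250 bp for the 1619 other genes of this kind. The summit lay upstream of the member's start site at 17 of 20 (85%), much as at other genes with an optimal promoter peak (84.1%). At 15 of 20 it lay between the member's nearest own start site and an opposite-strand one, for which no share of other genes was computed. At ND-24 and ATPsynE it also lay between such start sites if a farther own start site was counted, at 144 and 81 bp. Only ND-B17 and ND-B22 had the summit to themselves.

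Among the neighbours, Fum1 and Cchl are also on the list of other pathway genes, and no background share of such pairs was computed. ND-ASHI lies head to head with Fum1, the fumarase of the citrate cycle, and their closest start sites were 164 bp apart. The start sites on either side of the strongest summit were a different pair, 249 bp (ND-ASHI) and 273 bp (Fum1) from it. ND-42 lies 229 bp from Cchl, the cytochrome c heme lyase, and the summit was 23 bp from the start site of Cchl and 252 bp from that of ND-42. The remaining neighbours were not on that list, such as VhaM9.7-b beside COX8, glo beside COX5A, corolla beside ND-24 and Sec13 beside ATPsynCF6. Afti, VhaM9.7-b, hiw and p115 were likewise farther from the summit than ATPsynE, COX8, ND-B18 and ND-MNLL.

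For 8 of the 20 genes the strongest summit was nearer to another gene. The nearest start site belonged to CG13994 for ND-51 (102 bp against 130 bp), TppII for ND-MWFE (8 bp against 229 bp), Cchl for ND-42, IFT52 for COX5B (24 bp against 274 bp), RhoGAP68F for ND-SGDH (128 bp against 156 bp), CG3548 for ATPsynF (24 bp against 102 bp), Tctp for SdhC (66 bp against 332 bp) and Sec3 for COX7B (77 bp against 183 bp). COX6B and ND-MNLL were tied with CG18809 and CG45089, which start at the same base. The member was nearest at 12 of 20 (60%), ties included, beside 74.1% of other genes with an optimal promoter peak. Counting every optimal summit in the window, 15 of the 20 genes were nearest to at least 1. To which gene of a pair a peak belongs was not tested.

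**Figure D3:**
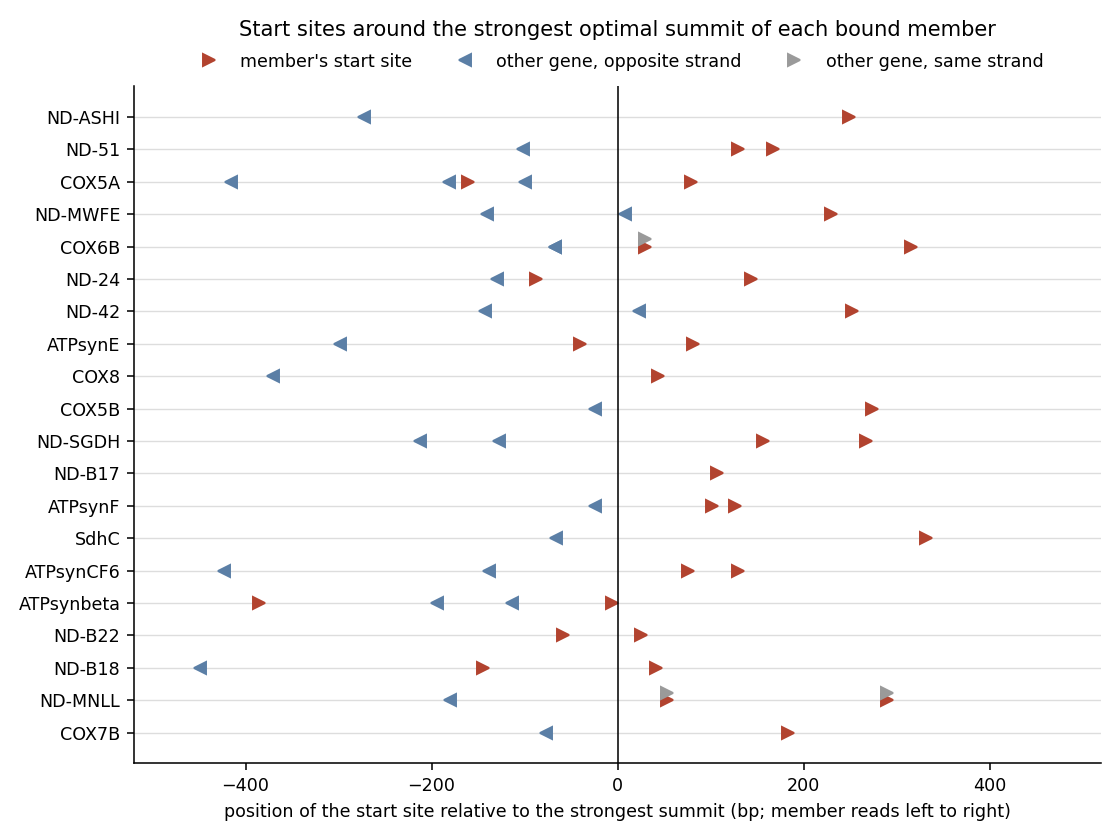
Start sites within 500 bp of the strongest summit (vertical line) of each of the 20 genes, in bp, with each gene turned so that it reads left to right; red is the gene itself, blue another gene on the opposite strand, grey another gene on the same strand. At 17 of 20 the nearest own start site lies to the right of the summit, and blue start sites lie in the window of 18.

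Gene arrangement differed between the groups. A head-to-head neighbour was present at 39 of 88 genes (44.3%), beside 27.2% of other genes, and at 3 of 24 copies. Among genes with such a neighbour, 18 of 39 (46.2%, interval 30.1 to 62.8) had an optimal promoter peak, close to 42.9% of other genes with one. Among those without, 2 of 49 had one (4.08%, interval 0.498 to 14), below the 15.4% of other genes without such a neighbour. The interval of the second group ended below that share, but 21 of these 49 were copies with no optimal promoter peak. Without the copies it was 2 of 28 (7.14%, interval 0.877 to 23.5), an interval that holds 15.4%, and no test was run. For the 21 copies it was 0% (interval 0 to 16.1), which also holds 15.4%. In the pooled list, 5 of these 21 had a promoter peak (23.8%, interval 8.22 to 47.2). That interval holds the 45.3% of other genes without such a neighbour. The division by gene arrangement was made after the values were seen. A peak at a pair counts for both of its genes, which raises the share of paired genes by construction.

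**Figure D4:**
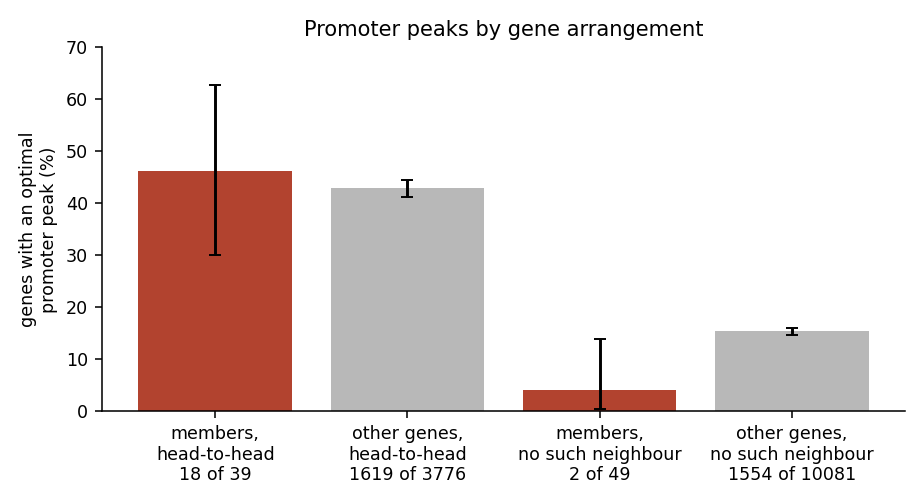
Share of genes with an optimal promoter peak, in percent, for genes with a head-to-head neighbour starting within 500 bp and for genes without one, with the 88 oxidative phosphorylation genes in red, other protein-coding genes in grey and exact 95% binomial intervals as bars. The shares were 46.2% and 42.9% with such a neighbour and 4.08% and 15.4% without.

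GAGAG was less frequent near these summits than near other promoter summits within 100 bp, and how far it differed depended on the window. It lay within 100 bp of 1 of 20 summits (5%, interval 0.127 to 24.9), beside 32.2% of the 2308 other optimal promoter summits. Other summits with start sites of 2 or more genes in the window had it at 17.8%, and those with 1 gene at 40.4%. The interval of the 20 held the first of these and ended below the second. In the strongest 4900 of the replicates, GAGAG was at 10.5%, 10% and 14.3% of the summits of oxidative phosphorylation genes (11.6% ± 2.34, SD, n = 3) and at 31.5% ± 0.632 of the others. Within 50 bp of the optimal summits it was at 5%, beside 19.2%, and within 250 bp at 7 of 20 (35%, interval 15.4 to 59.2), beside 52.8%, and both intervals of the 20 held the share of the others. The weaker second peak of ND-ASHI, 68 bp upstream of another of its start sites at optimal rank 4400, did hold GAGAG. The cytosolic ribosomal proteins had it at 11.6% of 69 summits and the mitochondrial ribosomal proteins at 14.7% of 34.

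Within 100 bp the other motifs were rare in both, and their intervals held the shares of the others. DRE was at 2 of 20 summits (10%), beside 8.97% of other summits, the core of motif 1 at 1 (5%), beside 5.59%, and the NRG element at 2 (10%, interval 1.23 to 31.7), beside 3.16%. Within 250 bp the NRG element was at 6 of 20 summits (30%, interval 11.9 to 54.3), beside 7.71%, which lies below that interval. The share was much the same at summits of oxidative phosphorylation genes with only a pooled promoter peak, at 11 of 36 (30.6%, interval 16.3 to 48.1). CACGTG, an E-box, and CAGGTAG, bound by Zelda, were at none of the 20 and at 3.47% and 0.91% of the others. In the promoters themselves, taken from 250 bases before to 50 after any start site of a gene, the core of motif 1 was at 20 of 88 genes (22.7%, interval 14.5 to 32.9), beside 8.62% of other genes. The NRG element was at 12 of 88 (13.6%, interval 7.25 to 22.6), beside 6.36%, and both intervals lay above the share of other genes. Of the 24 copies, 1 had the core of motif 1 and none the NRG element or DRE, while 10 had GAGAG (41.7%, interval 22.1 to 63.4), beside 36.3% of other genes. A match of letters does not show a bound site.

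**Figure D5:**
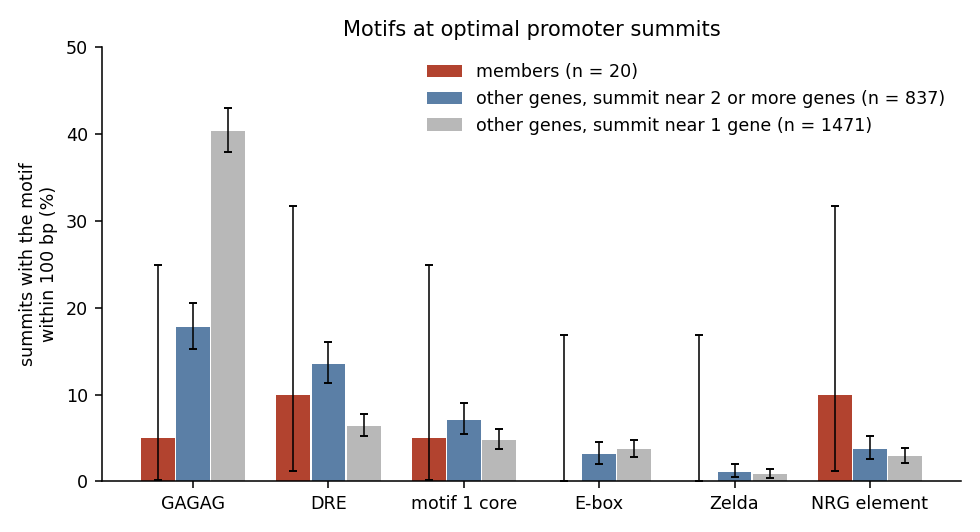
Share of optimal promoter summits with each motif within 100 bp on either strand, in percent, for the 20 summits of oxidative phosphorylation genes (red) and for other summits near the start sites of 2 or more genes (blue) or of 1 gene (grey), with exact 95% binomial intervals. GAGAG was at 5%, 17.8% and 40.4%; no other motif passed 15% in any of the 3 sets.

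Beyond the optimal list, 36 genes had only a pooled promoter peak, at ranks from 5179 to 27123, and 21 of them also had one in all 3 full replicate lists. After SdhD the strongest were COX7C at 5968, ND-13B at 6093, ND-PDSW at 6428, ND-39 at 6498 and ATPsynC, the ring subunit of the synthase, at 6603. ND-39 had the narrowest range of these 6, at 5216, 6584 and 6447 in the replicates, while ND-13B fell from 5470 and 7392 to 22669 in replicate 3. The summit of ND-PDSW, 57 bp upstream of it, was nearer to msl-2, a gene of dosage compensation. GAGAG was within 100 bp of 9 of these 36 summits (25%, interval 12.1 to 42.2), SdhD among them. That interval holds the 32.2% of other optimal promoter summits and overlaps that of the 20 (0.127 to 24.9). No share of other genes' summits found only in the pooled list was computed.

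No pooled promoter peak was found at 32 genes, of which 14 are of complex I, 3 each of complexes II and III, 7 of complex IV and 5 of complex V. Among these, 21 had none in any replicate list either. Without the copies they were 14, such as ND-19, ND-49, SdhA, UQCR-C1 and ATPsyndelta with none in any list, and COX4 with one in replicate 3 only, at rank 28002. A wider window added few genes, as only ND-B14.5B and SdhA had their nearest optimal summit beyond 500 bp but within 1000 bp, at 834 and 857 bp, while a window of 100 bp left 14 of the 20 genes with an optimal promoter peak and 35 of the 56 with a pooled one. For the 68 genes without an optimal promoter peak, the median distance to the nearest optimal summit was 6972.5 bp, against 10149 bp for other genes without one.

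Of the 18 parents of copies in the set, 6 had an optimal promoter peak, namely ND-51, ND-24, SdhC, COX5B, ATPsynCF6 and ATPsynbeta. Since no copy had one, a parent and its copies differed in the optimal list wherever the parent had a peak and nowhere else. ND-51L1, ND-24L, SdhCL, ATPsynCF6L and ATPsynbetaL had no promoter peak in any list. ND-51L2 and COX5BL had one in the pooled list, at ranks 26264 and 23872, near its end. Over all 24 copies, 13 had none in any list, among them COX4L, COX6AL2 and UQCR-14L, and the 6 with a pooled promoter peak ranked from 18404 to 26264. The remaining copies had one in a single replicate list, ND-20L at 22826 in replicate 2, SdhBL at 29920 in replicate 3, and COX6AL, ATPsynGL and ATPsynepsilonL at 24651, 29284 and 21506 in replicate 1.

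Genes of the pathway with other kinds of symbol had shares above those of all protein-coding genes. Of 47 listed symbols 42 were matched, and 16 of these had an optimal promoter peak (38.1%, interval 23.6 to 54.4), beside 22.9% of all protein-coding genes. A pooled promoter peak was at 34 (81%, interval 65.9 to 91.4), beside 54.4%. The list holds no L-suffixed copies, and both intervals held the shares of the 64 genes without that suffix (31.2% and 78.1%). The list was drawn up with earlier results of these data known. Among 9 subunit and cytochrome c genes, 5 had an optimal promoter peak (55.6%, interval 21.2 to 86.3), and the interval holds the 22.9% of all genes. The strongest was at blw, the alpha subunit of the ATP synthase, at rank 434 (597, 387 and 398), which was stronger than any of the 88. Cyt-c-d and Cyt-c-p, the cytochromes c, were at 758 and 4524, levy of complex IV at 2007 and ox of complex III at 4109. The summits of Cyt-c-d, levy and ox were nearer to CG31808, wmd and Dgkepsilon.

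The citrate cycle, which makes the NADH and succinate that the chain oxidises, had 5 of 11 (45.5%, interval 16.7 to 76.6), and the interval holds the 22.9% of all genes. These were Fum1 at 474, mAcon1, an aconitase, at 675, and the 3 genes of isocitrate dehydrogenase, Idh3b at 1060, Idh3g at 1249 and Idh3a at 4860. The summit of Fum1 was nearer to ND-ASHI and that of Idh3a to CoRest. Of 7 carriers and related genes, 2 had an optimal promoter peak (28.6%, interval 3.67 to 71). They were sesB, the adenine nucleotide translocase, at 4857 and Ucp4A, an uncoupling protein, at 2742. Of 7 assembly factors, Cchl alone had an optimal promoter peak (14.3%, interval 0.361 to 57.9), the one it shares with ND-42. Among 8 genes of regulators and mitochondrial transcription, 3 had one (37.5%, interval 8.52 to 75.5). Dref, which encodes the factor that binds DRE, was at 497 (439, 493 and 632). PolrMT, the mitochondrial RNA polymerase, was at 2240. M1BP, whose product binds motif 1, was at 3212, nearer to CG8202. Each of these intervals holds the 22.9% of all genes.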

How the data were processed

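Chromatin of 3 biological replicates, numbered as in the labels, was sonicated to 200 to 800 bp per the labels. DNA was recovered with the tagged protein, per the sample description. The authors deposited peak lists per replicate, a pooled list and an optimal list thresholded by IDR, the irreproducible discovery rate, per the deposited notes. The sources used here name neither aligner nor caller. The signal of each peak is the authors' deposited value. It has no stated scale, and served only for ranks inside each list. The summit is the deposited start plus offset, on dm6. The dm3 lists were not used.

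Start sites came from Ensembl release 115 and sequence from the RefSeq Release 6 genome, with the same arms and lengths. A gene's promoter peak was its strongest summit within 500 bp of any start site, and replicates were also cut to their strongest 4900 peaks. A percentile is 100 for the strongest peak of a list. Motifs were sought on both strands. Exact 95% binomial (Clopper-Pearson) intervals were computed with scipy 1.17.1, tables with pandas 2.3.3 and numpy 2.4.6, and figures with matplotlib 3.10.9, in Python 3.11.15. The code was tested on simulated data.

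The genes, lists and most alternatives were chosen with earlier results of these data known. Genes named in full were the 12 strongest by pooled rank. The others named were the rest with an optimal promoter peak, the 6 strongest with a pooled one only, those next to a threshold, copies of parents with a peak, up to 4 genes per complex with no pooled promoter peak, listed pathway genes with an optimal promoter peak, and nearer neighbours. With 1 group, no conditions were compared and no test between gene sets was made. The alternatives were windows of 100 and 1000 bp, 1 start site per gene, the copies left out, the stronger part of the optimal list, each replicate alone or left out, fewer top peaks, the nearest start site only, and motif windows of 50 and 250 bp.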

Additional observations from a re-analysis of the deposited data

How the results depend on the processing

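The count of 20 genes with an optimal promoter peak stayed between 14 and 22 under all its alternatives. The share of the 88 genes minus that of other genes was -0.171 percentage points and changed sign easily, so no direction can be read from it. It was 4.6 with a window of 100 bp, 2.6 with 1 start site per gene, 2.86 in the stronger part of the optimal list and 1.34 in the top peaks of replicate 3 alone. It was 6.95 without the duplicate copies and assembly factor, and 8.35 without all L-suffixed copies, an alternative chosen after seeing the data. With a window of 100 bp the pooled count was 35, the count in all 3 replicates 7 and the mean replicate share 14%. That share was 25.4% with 1000 bp, 29.4% without duplicate copies and 16.3% with fewer top peaks. Leaving out 1 replicate gave counts of 16 to 17 genes in both others and shares of 22.2% to 23.3%. In the stronger part of the optimal list 7 of 14 genes were nearest to the summit. GAGAG was at 35% of summits within 250 bp, beside 52.8% of other summits. Within 50 bp, within 250 bp and in the stronger part, DRE was at 5%, 20% and 14.3%, and the core of motif 1 at 0%, 15% and 7.14%. The NRG element was at 5% within 50 bp and 30% within 250 bp, beside 1.43% and 7.71% of other summits, and the Zelda motif at 5% within 250 bp. A wider window holds more letters by construction. The cause of the other changes was not tested. No paired analysis was possible because there is only 1 group. Depth is unknown, and with 20 summits and 5 to 34 genes per complex without the copies, moderate differences were not detectable.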
